A study of Mus musculus with 12 samples.

Results

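Imprinted genes are expressed mainly from the copy inherited from 1 parent, and 38 well-known mouse members of this class were followed here across 2 steps of the male germ line and their in vitro counterparts. The genes were taken by name, with no threshold on a measured value, but the list was drawn up with earlier results of these data known. Each was read on its brightest probe set (the short array probes that together measure a transcript) among those annotated to that symbol alone. Such a probe set existed for 36 of the 38 genes, out of 18193 genes in the whole table. H19 and Zrsr1 had none annotated to them alone and were not analysed here. Of the 36, 31 were bright enough to be tested, among 14201 genes tested in all. By the parental copy usually expressed, 19 of the 38 were classed as paternal (15 tested) and 15 as maternal (12 tested). Another 4 were classed as dependent on tissue or isoform (Grb10, Ddc, Gnas and Blcap, all 4 tested). These classes are simplified, since a gene classed by parent may also be imprinted in some tissues only.

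The study measured total RNA on 12 Affymetrix 3′ expression arrays, 3 per group, and paired each in vitro germ cell type with a natural one. Primordial germ cells (PGC) came from the genital ridge of male BDF1 fetuses at E12.5 (mid-gestation), and round spermatids (RS), the haploid cells that follow meiosis, from the testis of BDF1 mice at 3 weeks of age. PGC-like cells (PGCLC) were collected at day 6 of differentiation in vitro, and spermatid-like cells (SLC) were also made in vitro. All cells were isolated by fluorescence-activated sorting. The labels call the 3 arrays of a group biological replicates; they name neither the sorting gate nor the starting line or genotype of the in vitro cells, nor whether animals were pooled, so the p-values measure the spread between these samples.

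Imprints are DNA methylation marks set differently in egg and sperm. In the germ line they are erased while primordial germ cells develop in the fetal gonad, and a male pattern is laid down in the cells that later become sperm, whereas in body tissues they are kept for life. The zinc finger protein ZFP57 guards the marks in the early embryo by binding a methylated hexamer, TGCCGC. Many imprinted genes control fetal and placental growth. The arrays do not separate the 2 parental copies, so each level below is the sum over both and says nothing of imprint status. In these bulk samples, fewer cells of a type and less RNA per cell cannot be told apart.

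The start regions of 6 members are printed here because these genes carry the comparisons below: Plagl1 and Grb10 were higher in both in vitro cell types, Mest fell more than 50-fold from each early cell type to its spermatid counterpart, and Meg3, Rian and Mirg are neighbouring noncoding RNAs with different values in spermatids. Each window runs 5′ to 3′ from 250 bases before to 50 after a RefSeq transcript start (GRCm38.p6), in lower case, with each match to the ZFP57 hexamer on either strand in capitals (all matches shown lie on the reverse strand and so read GCGGCA).
Plagl1 (chr10:13090582-13090881, plus strand): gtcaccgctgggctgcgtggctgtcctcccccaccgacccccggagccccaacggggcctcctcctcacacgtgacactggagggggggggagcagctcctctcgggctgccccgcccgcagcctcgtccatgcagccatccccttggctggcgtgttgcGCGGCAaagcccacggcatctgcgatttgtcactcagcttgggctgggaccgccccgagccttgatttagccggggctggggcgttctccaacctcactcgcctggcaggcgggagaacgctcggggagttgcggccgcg
Grb10 (chr11:12037371-12037670, minus strand): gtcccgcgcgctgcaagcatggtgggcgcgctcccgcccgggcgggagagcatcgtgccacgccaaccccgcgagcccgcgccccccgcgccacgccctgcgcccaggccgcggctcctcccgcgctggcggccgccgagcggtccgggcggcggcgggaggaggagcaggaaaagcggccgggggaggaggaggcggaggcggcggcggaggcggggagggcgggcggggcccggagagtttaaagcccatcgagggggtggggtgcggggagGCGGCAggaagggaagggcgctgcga
Mest (chr6:30737800-30738099, plus strand): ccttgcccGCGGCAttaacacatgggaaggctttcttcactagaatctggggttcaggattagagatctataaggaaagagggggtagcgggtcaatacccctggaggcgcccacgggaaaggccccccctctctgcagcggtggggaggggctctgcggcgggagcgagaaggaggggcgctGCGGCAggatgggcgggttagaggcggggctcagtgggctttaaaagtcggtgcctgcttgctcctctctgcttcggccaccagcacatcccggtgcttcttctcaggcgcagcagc
Meg3 (chr12:109540746-109541045, plus strand): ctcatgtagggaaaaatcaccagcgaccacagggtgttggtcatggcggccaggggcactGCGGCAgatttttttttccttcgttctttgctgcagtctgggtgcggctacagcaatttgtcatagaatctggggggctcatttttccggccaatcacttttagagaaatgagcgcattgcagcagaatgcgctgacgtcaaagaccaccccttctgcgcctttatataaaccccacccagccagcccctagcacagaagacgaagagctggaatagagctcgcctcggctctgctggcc
Rian (chr12:109603695-109603994, plus strand): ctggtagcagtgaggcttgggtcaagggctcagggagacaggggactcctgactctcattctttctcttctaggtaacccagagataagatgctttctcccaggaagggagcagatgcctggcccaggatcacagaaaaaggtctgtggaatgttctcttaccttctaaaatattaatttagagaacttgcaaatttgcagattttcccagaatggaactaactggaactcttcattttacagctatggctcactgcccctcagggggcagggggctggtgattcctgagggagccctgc
Mirg (chr12:109734731-109735030, plus strand): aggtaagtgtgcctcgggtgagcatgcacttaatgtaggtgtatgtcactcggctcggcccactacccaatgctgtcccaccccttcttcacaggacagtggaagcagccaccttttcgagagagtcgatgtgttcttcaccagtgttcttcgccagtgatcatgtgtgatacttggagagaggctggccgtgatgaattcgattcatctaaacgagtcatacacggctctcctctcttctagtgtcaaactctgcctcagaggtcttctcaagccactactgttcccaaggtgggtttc
The Grb10 window held 45 CpG dinucleotides, the Plagl1 window 26, the Mest window 17, the Meg3 window 13 and the Mirg window 10, while the Rian window held 0. The hexamer TGCCGC occurred 2 times in the printed Mest window, once each in those of Plagl1, Grb10 and Meg3, and not in those of Rian and Mirg. Mest, Grb10 and Meg3 have other start windows, which were not printed. Those starting at chr6:30733256 (Mest, 8 CpG), chr11:12027922 (Grb10, 9 CpG) and chr12:109545148 (Meg3, 1 CpG) held 0 matches. A further Mest window, starting at chr6:30737803, held 17 CpG and 2 matches. Over 48 windows of 32 members found in the RefSeq table, 11 (22.9%, 10 genes) held it on either strand, beside 11.6% of all 32851 windows of the same length. The median window of a member held 13 CpG, and the median of all windows 7. A match is a description of the letters and not a binding site, and a window without one may have a site elsewhere.

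Signals are on the linear scale of the MAS5 method, on which every array's trimmed mean is 500.003 to within 0.001. Values under 30.7, the 25th percentile of the table, were set to that floor before log2 for every fold and test, while signals are printed as deposited. A gene was called changed at an adjusted p under 0.05 and a fold of at least 2 in limma's moderated test of the 6 arrays of a comparison, with Benjamini-Hochberg adjustment over the 14201 genes. The PGCLC arrays differed among themselves more than the others. Their median standard deviation of log2 signal was 0.305, against 0.130 in PGC, 0.169 in RS and 0.126 in SLC, and the lowest correlation between 2 PGCLC arrays was 0.914, against 0.977 or more within the other groups. The summed signal of 12 germ cell landmark genes was 65882 to 68791 in PGC and 32895, 60723 and 50191 on PGCLC arrays 1, 2 and 3.

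**Figure D1:**
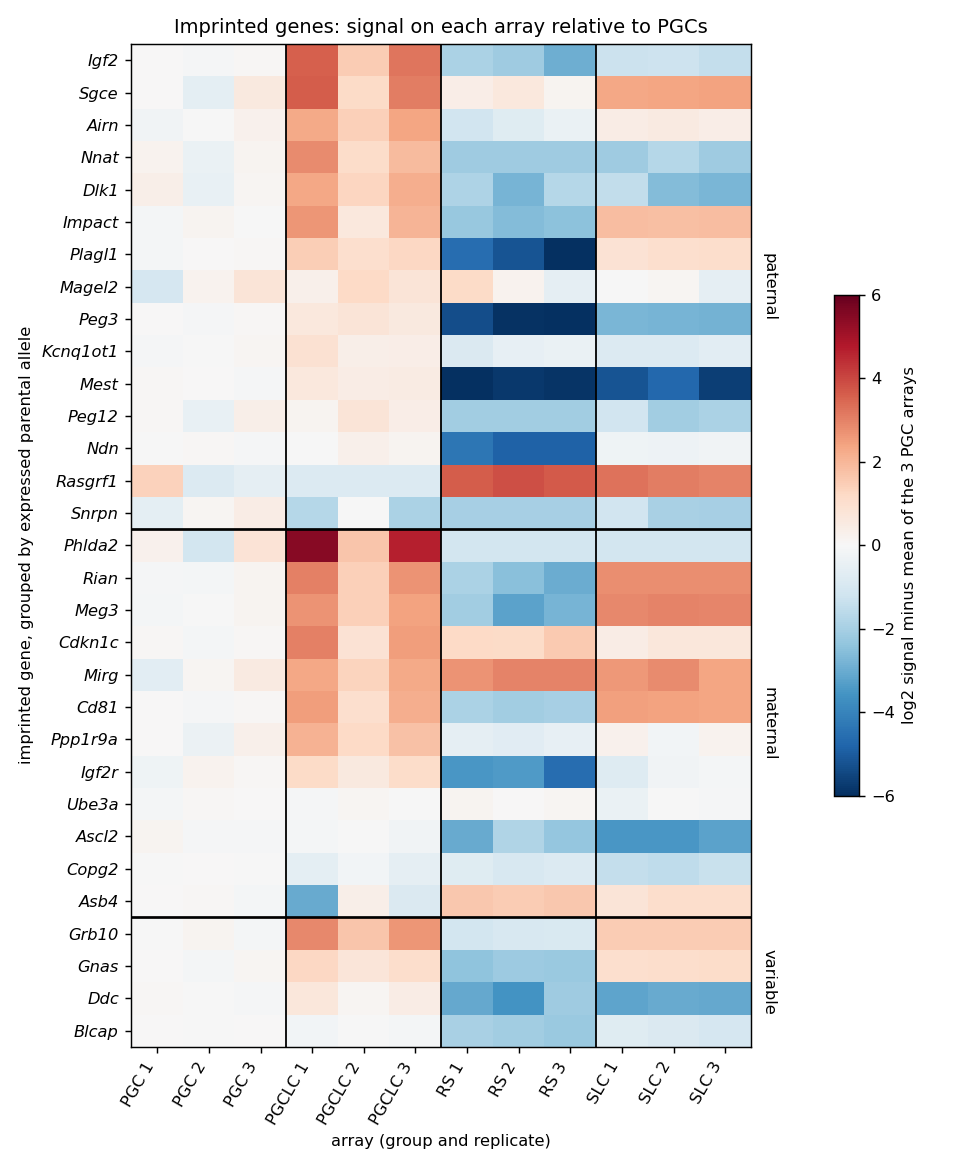
Signal of the 31 tested imprinted genes on each of the 12 arrays, as log2 signal relative to the mean of that gene over the PGC arrays (colour scale, log2 units, ending at 6 in either direction); rows are genes ordered by usually expressed parental copy ("variable" means dependent on tissue or isoform) and columns are arrays. The PGCLC columns are mostly above PGC, the round spermatid columns mostly below, and the SLC columns differ from round spermatids in a subset of genes.

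In day 6 PGCLC most imprinted genes stood above fetal PGC, but the 3 PGCLC arrays differed from each other and few members passed the test. Grb10, Plagl1 and Gnas rose and no member fell: limma called 3 of 31 higher, against 1.20% of all genes, and 0 lower, against 0.0493%. Before adjustment, 20 members were higher at p under 0.05 (17.9% of all genes) and 1 was lower (15.4%). On all 3 PGCLC arrays 21 of the 31 members were above all 3 PGC arrays (20.7% of all genes) and 2, Copg2 and Blcap, were below (20.5% of all genes). The median log2 difference of the 31 was 1.01, beside 0.005 over all genes. The 170 genes higher and 7 lower of all tested became 438 and 423 when each array was centred on its median, under which 9 members were higher and 0 lower. Of the 3 members called above, only Grb10 was among these 9, and Plagl1 and Gnas were not. When all 12 arrays share 1 estimate of spread, which takes the PGCLC spread as smaller than measured, 16 members were called higher (10.4% of all genes) and 0 lower (1.62%).

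Grb10, an adaptor that dampens insulin and insulin-like growth factor receptors, had signals of 863, 969.9 and 793 in the PGC arrays and 6411, 2765 and 5388 in the PGCLC arrays. The groups did not overlap, and Grb10 rose 5.24-fold (log2 difference 2.39, SE 0.34, adjusted p = 0.048, limma). Igf2, the fetal growth factor, had 1171, 1084 and 1185 in PGC and 13732, 3251 and 10664 in PGCLC. All 3 PGCLC arrays were above PGC, but the highest was more than 4 times the lowest, and the 6.81-fold difference did not pass the test (log2 difference 2.77, SE 0.57, adjusted p = 0.0668). Igf2r, the receptor that carries IGF2 to degradation, had 1625, 2217 and 1993 in PGC and 4255, 2919.6 and 4162 in PGCLC, a 1.93-fold difference with an adjusted p of 0.0672 (limma). Dlk1, a transmembrane relative of Notch ligands, had 295, 172 and 254 and 1174, 569.9 and 1064, a 3.81-fold difference that did not pass (adjusted p = 0.0615). Each of these 4 was lowest, among PGCLC arrays, on array 2.

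Among the transcription and signalling regulators, Plagl1, a zinc finger transcription factor, had 2181, 2407 and 2414 in PGC and 6484, 4654 and 5501 in PGCLC. It rose 2.36-fold (log2 difference 1.24, SE 0.13, adjusted p = 0.0394), and both of its probe sets above the filter were higher. Gnas, the locus of the stimulatory G protein alpha subunit, had 3517, 3255 and 3775 in PGC and 8257, 5883 and 7315 in PGCLC. It rose 2.02-fold (log2 difference 1.01, SE 0.14, adjusted p = 0.048), just past the 2-fold limit. Peg3, a zinc finger protein, had 4125, 3884 and 4310.0 in PGC and 6310.3, 7049 and 6067 in PGCLC, and its 1.58-fold difference passed the adjusted p (0.0407) but not the fold limit. Mest, an enzyme of the hydrolase family expressed in mesoderm, did the same at 1.44-fold (adjusted p = 0.0442), with 3787, 3685 and 3429 in PGC and 5596, 4997 and 5092 in PGCLC. Unlike most members, Peg3 was highest on PGCLC array 2.

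The growth-restraining genes of the Kcnq1 cluster differed widely between PGCLC arrays. Phlda2, which limits placental growth, had 79.7, 5.52 and 116 in PGC, with 1 array at the floor, and 2891, 212 and 1649 in PGCLC. The groups did not overlap and the fold was at least 15.2 (log2 difference 3.93, SE 1.14, adjusted p = 0.098, not called). Cdkn1c, the cell cycle inhibitor p57, had 798, 687 and 785 and 6069, 1364 and 4351, 4.38-fold (adjusted p = 0.091). Cd81, a tetraspanin of the cell membrane, had 1402, 1322 and 1483 and 7909.6, 2814 and 6301, 3.71-fold (adjusted p = 0.0688). Kcnq1ot1, the paternal antisense RNA that silences the cluster, had 365, 374 and 409 and 709, 480.1 and 507, 1.46-fold (adjusted p = 0.119). Ascl2, a helix-loop-helix factor of trophoblast, overlapped between the groups, with 378, 326 and 321 in PGC and 309.6, 332 and 290.2 in PGCLC. The maternal genes Phlda2, Cdkn1c and Cd81 were thus all above PGC, highest on array 1 and lowest on array 2, while Ascl2 in the same cluster was not above PGC. The potassium channel gene Kcnq1 itself was below the filter, at 2.32 to 58.2 in PGC and 2.03 to 38.9 in PGCLC.

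**Figure D2:**
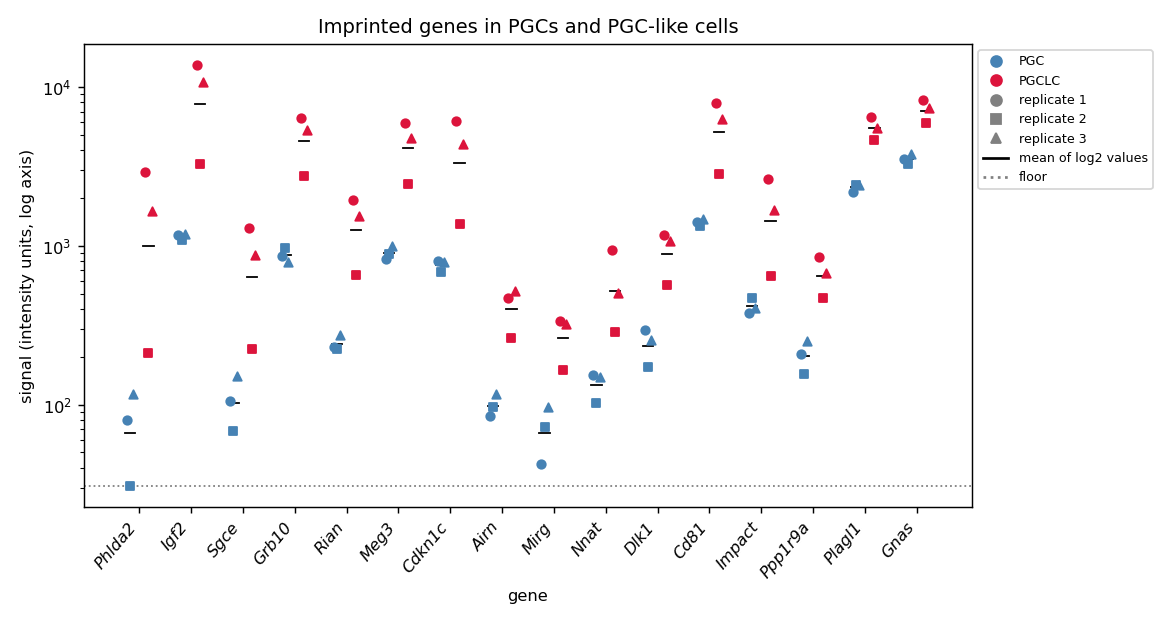
Signal (log axis, values under the floor drawn at it) on the 3 PGC and 3 PGCLC arrays of the 16 imprinted genes called higher when all 12 arrays share 1 fit, 1 point per array, with the mean of log2 values as a bar. The PGCLC points lie above the PGC points, mostly with array 1 highest and array 2 lowest, as for Phlda2 with 2891 on array 1 and 212 on array 2.

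The order of the 3 PGCLC arrays recurred from gene to gene. Of the 21 members above PGC on every PGCLC array, 19 were highest on array 1 and lowest on array 2 (all but Airn and Peg3), an order held by 66.7% of the 2946 genes above PGC in the same way and by 33.6% of all genes. The median log2 difference of the 31 members from the PGC mean was 1.23 on array 1, 0.79 on array 2 and 1.11 on array 3, while the median over all genes was 0 on each. The 4 trophoblast genes bright enough to test (Hand1, Eomes, Plac1 and Krt7, of 12 listed) summed to 399 to 546 in PGC and to 6441, 944 and 4364 on PGCLC arrays 1, 2 and 3. Signals of Krt7, a keratin of simple epithelia and trophoblast, were 101, 121 and 152 in PGC and 3618, 337 and 2403 in PGCLC. Hand1 and Eomes were highest on array 3, so the order of the sum is that of Plac1 and Krt7. Among the germ cell landmarks Dppa3, Dazl and Ddx4 were lowest on array 1 and highest on array 2, while the pluripotency genes Nanog, at 10147, 2985 and 8247, and Sox2, at 9677, 6489.6 and 8573, were highest on array 1 and lowest on array 2, as most imprinted genes were. The 18 genes of gonadal somatic cells summed to 7338, 18921 and 11526 on PGCLC arrays 1, 2 and 3, beside 6369 to 7890 in PGC, although Nr2f1 among them had 1263, 303 and 1121. Of 19 genes typical of testis body cells 5 were called higher in PGCLC (1.20% of all genes) and 0 lower: Clu (5.24-fold), Vim (3.14-fold), Pdgfrb (3.08-fold), Acta2 (2.56-fold) and Col1a2 (2.50-fold). The part of these marker differences in the imprinted gene levels was not tested. Without PGCLC array 2, 17 members were called higher (14.0% of all genes) and 1, Snrpn, lower (4.67%), but without any other single array of the comparison limma called 0 in either direction. Of all genes it then called 0.0352% higher and 0.0211% lower without PGC array 1, 0.0493% and 0.00704% without PGCLC array 1, 0.00% and 0.00704% without PGC array 2, and 0.00% in each direction without PGC array 3 or PGCLC array 3. At an unadjusted p under 0.05, 17 to 21 members were higher in those 5 fits (11.0% to 12.9% of all genes) and 1 lower (7.67% to 11.5%).

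Other members differed by folds as large as those called, with wider spread, or overlapped between the groups. Impact, an inhibitor of the stress kinase GCN2, had 377, 466 and 407 in PGC and 2628, 649 and 1690.0 in PGCLC (3.43-fold, adjusted p = 0.104). Sgce, a sarcoglycan of the membrane, had 105, 67.7 and 152 and 1292, 224 and 876 (6.17-fold, adjusted p = 0.0959). Nnat, a small membrane protein of neurons, had 155, 102 and 150.1 and 947, 288 and 503 (3.87-fold, adjusted p = 0.0813). These 3 paternal genes were above PGC on every PGCLC array, with differences between PGCLC arrays of more than 3 times. Ppp1r9a, an actin-binding scaffold, differed 3.20-fold (adjusted p = 0.0588), with 209, 157 and 252 in PGC and 853, 466 and 677 in PGCLC. Airn, which is antisense to Igf2r, had 84.1, 97.0 and 117 and 472, 261 and 516 (4.05-fold, adjusted p = 0.0534). Blcap had 1079, 1063 and 1074 in PGC and 956, 1039 and 974 in PGCLC, below on every array by a 1.08-fold difference (adjusted p = 0.214). Copg2, a coatomer subunit, was 1.35-fold below (adjusted p = 0.0913). The Snrpn domain genes did not follow the others: Ndn, the growth suppressor necdin, had 1541, 1659.9 and 1500.4 in PGC and 1530.2, 1943 and 1783 in PGCLC, Ube3a, a ubiquitin ligase, had 3971, 4501 and 4400.2 and 4049, 4622 and 4182, and both overlapped between the groups. Peg12 had 138, 96.6 and 164 and 144, 224 and 171, also overlapping. Magel2 had 26.0, 73.2 and 108 and 77.7, 144 and 106, with 1 PGC array under the floor. Snrpn, read only on its own dim probe set, had 81.6, 135 and 168 and 37.6, 122 and 32.8, with no PGCLC array above the highest PGC array. A further 6 Snrpn probe sets carry several gene symbols and were not read, so these values may not give the level of Snrpn.

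By parental copy, the median log2 difference between PGCLC and PGC was 0.76 over the 15 paternal genes and 1.78 over the 12 maternal genes. By array the paternal median was 0.89, 0.79 and 0.77, and the maternal median 2.21, 0.93 and 1.96, so that the classes stood close on array 2 and apart on arrays 1 and 3. Of the paternal genes 10 of 15, and of the maternal genes 8 of 12, were above PGC on every array. The called genes were 1 paternal gene (Plagl1), 0 maternal genes and 2 of the 4 variable genes (Grb10 and Gnas). Whether the classes differ was not tested.

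**Figure D3:**
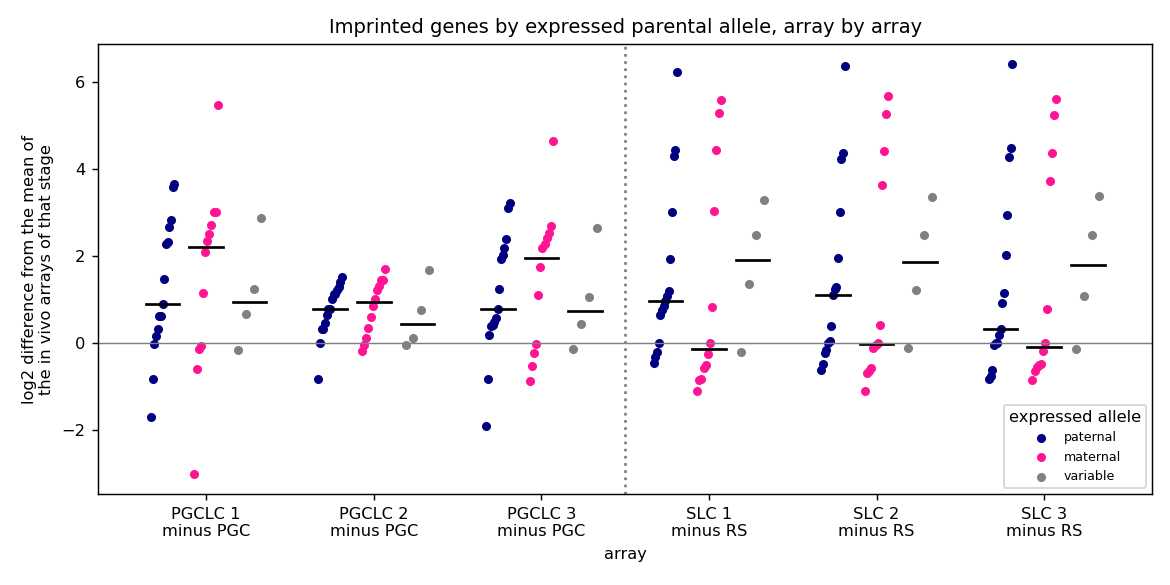
Log2 difference of each tested imprinted gene from the mean of the natural counterpart (PGC for PGCLC, RS for SLC), for each of the 6 in vitro arrays (x axis), coloured by usually expressed parental copy; points are genes and bars class medians. The maternal median lies at 2.21, 0.93 and 1.96 on PGCLC arrays 1, 2 and 3, above the paternal medians of 0.89, 0.79 and 0.77.

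In spermatid-like cells 14 members were higher than in round spermatids and 1 was lower, out of 31. Over all genes 23.9% were called higher and 3.48% lower. The largest differences were in Plagl1, in the maternal noncoding RNAs Meg3 and Rian, in Ndn and in Cd81, each more than 20-fold, while Mest, Dlk1, Nnat and Phlda2 were at 138 or less on every array of both cell types. On every array 17 members were above round spermatids (34.5% of all genes) and 6 below (40.5%). The median of all genes was -0.15, and the median log2 difference of the members was 0.67. By parental copy, 7 of 15 paternal genes rose and 0 fell, 4 of 12 maternal genes rose and 1 fell, and 3 of the 4 variable genes rose; the median log2 difference was 0.77 over the paternal and -0.14 over the maternal genes, and whether the classes differ was not tested.

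Plagl1 had 96.9, 64.9 and 15.4 in RS, 1 of them under the floor, and 4286, 4739 and 4859 in SLC. It rose 79.9-fold (log2 difference 6.32, SE 0.39, adjusted p = 1.59e-05), and the ratio of the mean signals was 78.4. Ndn had 77.1, 55.0 and 53.8 in RS and 1320.1, 1261 and 1359.8 in SLC and rose 21.5-fold (log2 difference 4.43, SE 0.17, adjusted p = 2.58e-06). All 5 Ndn probe sets above the filter were higher in SLC, by log2 differences from 2.81 to 4.64. Cd81 had 372, 335 and 357 in RS and 7686, 7475 and 7242 in SLC and rose 21.1-fold (log2 difference 4.40, SE 0.06, adjusted p = 7.02e-08). Impact had 86.0, 69.3 and 76.5 and 1509.9, 1447 and 1477, a rise of 19.2-fold (adjusted p = 7.96e-07). In all 4 the lowest SLC array was more than 10 times the highest RS array.

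Igf2r, Gnas and Grb10 act in growth factor or hormone signalling. Igf2r had 170.4, 183 and 82.4 in RS and 1122, 1684 and 1797 in SLC and rose 11.0-fold (adjusted p = 1.23e-04). Gnas had 648, 765 and 747 and 7015, 7369.9 and 7496, 10.2-fold (adjusted p = 2.64e-07). Grb10 had 411, 451 and 469 and 2469, 2477 and 2478, 5.59-fold (adjusted p = 6.31e-07), although 1 of its 3 probe sets was lower and the mean of its probe sets was not called. Each of these 3 was well separated between the groups. Peg3 had 103, 67.1 and 60.7 in RS and 606, 597 and 572 in SLC, 7.90-fold (adjusted p = 3.60e-05), and so rose from a low level to one still far under that of PGC. Sgce had 135, 159 and 114 and 515, 524 and 547, 3.93-fold (adjusted p = 4.83e-05).

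The 4 smallest calls depend on the processing. Blcap had 278, 255 and 228 in RS and 645, 585 and 535 in SLC, 2.32-fold (adjusted p = 1.74e-04). Airn, the noncoding RNA that silences the paternal Igf2r, had 44.1, 59.4 and 75.2 and 134, 141 and 129, 2.32-fold (adjusted p = 0.00289). Igf2 had 304, 259 and 149.8 and 477, 484 and 431, 2.04-fold (adjusted p = 0.0117). Ascl2 was the only call downward, with 42.2, 96.8 and 68.8 in RS and 24.0, 6.20 and 36.6 in SLC, 2 of the SLC arrays under the floor, a fall of at least 2.01-fold (adjusted p = 0.0238). The other Ascl2 probe sets above the filter differed by 0.10 and -0.04 log2 units, on RS and SLC signals mostly under the floor. Centring each array on its median ended the calls of Airn, Blcap and Igf2, and quantile normalization ended those of all 4. These scalings moved the split of all calls from 3401 higher and 494 lower to 2944 and 2617, or 2753 and 2371. The call of Igf2 was also lost without RS array 3 or SLC array 2 and with all 12 arrays in 1 fit, and that of Ascl2 without RS array 2 or 3 or SLC array 1 or 2. The other 11 were called under both scalings.

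The SLC samples also carried RNA of genes typical of testis body cells. The summed signal of 19 such genes was 3464 to 4412 in RS and 104888 to 106749 in SLC, and 17 of the 19 were called higher (23.9% of all genes) and 1 lower (3.48%). On each RS array 2 or 3 of the 19 were at the floor, and on each SLC array 0 or 1. Col1a1, a collagen of connective tissue, had 94.4, 69.5 and 165 in RS and 8013, 8739.7 and 8282 in SLC, and Cyp11a1, the first enzyme of steroid synthesis, had 4.01, 14.3 and 8.57 and 4305, 4002 and 4039. The summed signal of the 12 germ cell landmark genes was 114969 to 122697 in RS and 83048 to 87916 in SLC. Of these 12, limma called 1 higher (23.9% of all genes) and 2 lower (3.48%). Before adjustment, its p was below 0.05 for 8 with less signal in SLC (39.4% of all genes) and 1 with more (33.8%). Prm1 among them, a protamine of the spermatid nucleus, had 32554, 33603 and 32384 in RS and 27208, 24408 and 24489.7 in SLC. The log2 ratio of 3′ to 5′ Gapdh probes, which is higher in degraded RNA, was between -0.01 and 0.20 in RS and between -0.56 and -0.43 in SLC, while that of Actb overlapped (0.46 to 0.49 in RS and 0.33 to 0.60 in SLC). The part of any of these in the imprinted gene differences was not tested.

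Of the 16 members not called, several still differed in level on every array. Cdkn1c had 1718, 1694 and 2238 in RS and 1042, 1194 and 1195 in SLC (1.64-fold below, adjusted p = 0.00182). Copg2 had 1917, 1645 and 1767 and 1185, 1100.2 and 1237 (1.51-fold below, adjusted p = 4.54e-04). Asb4 and Rasgrf1 were also below RS on every SLC array, by 1.57-fold and 1.53-fold (adjusted p = 4.23e-04 and 0.00237). These 4 passed the adjusted p but not the 2-fold limit. Mest (1.71-fold, adjusted p = 0.0382) and Ppp1r9a (1.59-fold, adjusted p = 0.0128) did the same in the other direction. In the Kcnq1 cluster Kcnq1ot1 had 208, 267 and 286 in RS and 219, 215 and 243 in SLC, and Kcnq1 200.4, 33.8 and 129.5 and 29.5, 40.9 and 18.9, untested. Phlda2 was at the floor in both groups, with 15.4, 9.75 and 27.4 and 29.9, 4.63 and 7.45, so it has no fold. In the Snrpn region Ndn was the only member called: Magel2, a relative of necdin, had 137, 73.0 and 43.3 and 60.8, 67.6 and 42.9, Snrpn 26.9, 13.7 and 18.7 and 55.4, 31.8 and 14.7, and Peg12 1.60, 1.45 and 2.12 and 59.4, 30.4 and 34.9, with all RS arrays of Peg12 under the floor. Ube3a had 4729.9, 4381 and 4672 and 3226, 4227 and 4031 (adjusted p = 0.0503). Usp29 and Zim1, neighbours of Peg3, had at most 43.5 and 36.6 on any RS or SLC array and were not tested.

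**Figure D4:**
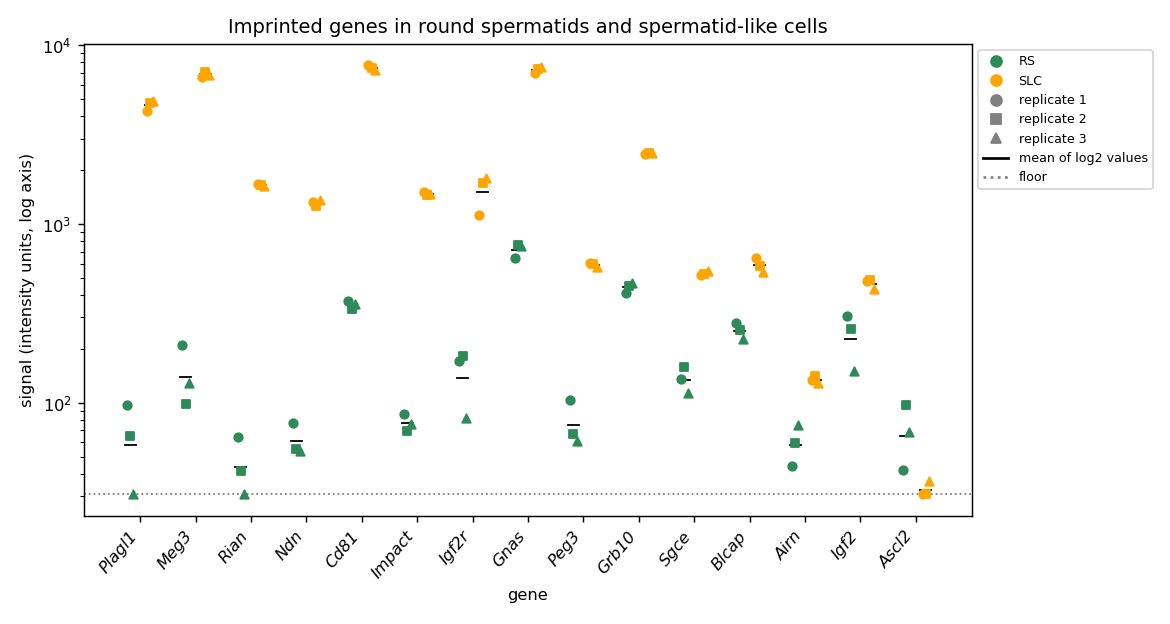
Signal (log axis, values under the floor drawn at it) of the 15 imprinted genes called between round spermatids and SLC, 1 point per array, with the mean of log2 values as a bar and the floor dotted. The SLC points lie above the round spermatid points for 14 genes, from Plagl1 at the left to Igf2, and below them for Ascl2.

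The Dlk1-Meg3 region on chromosome 12 holds Dlk1, expressed from the paternal copy, and 3 maternal noncoding RNAs in a row: Meg3, Rian, a host of small nucleolar RNAs, and Mirg, a host of microRNAs. In the RefSeq annotation (GRCm38.p6) 77.7 kb separate Dlk1 from Meg3, 32.2 kb Meg3 from Rian, and 73.3 kb Rian from Mirg. In PGC, Meg3 had 826, 892 and 998, and in PGCLC 5900.4, 2452 and 4782, a 4.55-fold difference just short of the threshold (adjusted p = 0.0526). Rian had 229, 224 and 272 and 1932, 655 and 1542 (5.19-fold, adjusted p = 0.0592), and Mirg 42.3, 72.4 and 96.2 and 336, 166 and 319.7 (3.93-fold, adjusted p = 0.0713). Thus all 4 genes of the region, Dlk1 included, lay above PGC on every PGCLC array without passing the test, and all 11 Meg3 and all 4 Rian probe sets were higher. In spermatids Meg3 and Rian rose, and Mirg and Dlk1 overlapped between the groups. Meg3 had 210.5, 98.7 and 129 in RS and 6662, 7106 and 6794 in SLC and rose 49.3-fold (log2 difference 5.62, SE 0.26, adjusted p = 4.63e-06). Rian had 63.9, 41.7 and 24.9 in RS, with 1 array under the floor, and 1680.4, 1652 and 1638 in SLC, a rise of 38.1-fold (log2 difference 5.25, SE 0.27, adjusted p = 7.19e-06) with a ratio of the mean signals of 38.1. All 11 Meg3 and all 4 Rian probe sets were higher in SLC. Mirg had 429, 525 and 519 in RS and 407, 472 and 347 in SLC and overlapped between them (adjusted p = 0.15). The other Mirg probe set above the filter also overlapped, at a lower level, with 74.2, 120 and 111 in RS and 101, 136 and 105 in SLC. Between PGCLC and PGC it differed by 0.90 log2 units, beside 1.97 on the brightest Mirg probe set. Dlk1 had 65.0, 33.5 and 71.4 and 83.7, 38.2 and 34.9 and overlapped too (adjusted p = 0.76). The difference between SLC and RS less that between PGCLC and PGC was 3.44 log2 units for Meg3, 2.88 for Rian, -2.24 for Mirg and -2.09 for Dlk1 (interaction test over 12 arrays, adjusted p = 7.67e-05, 8.05e-04, 0.00212 and 0.0131).

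**Figure D5:**
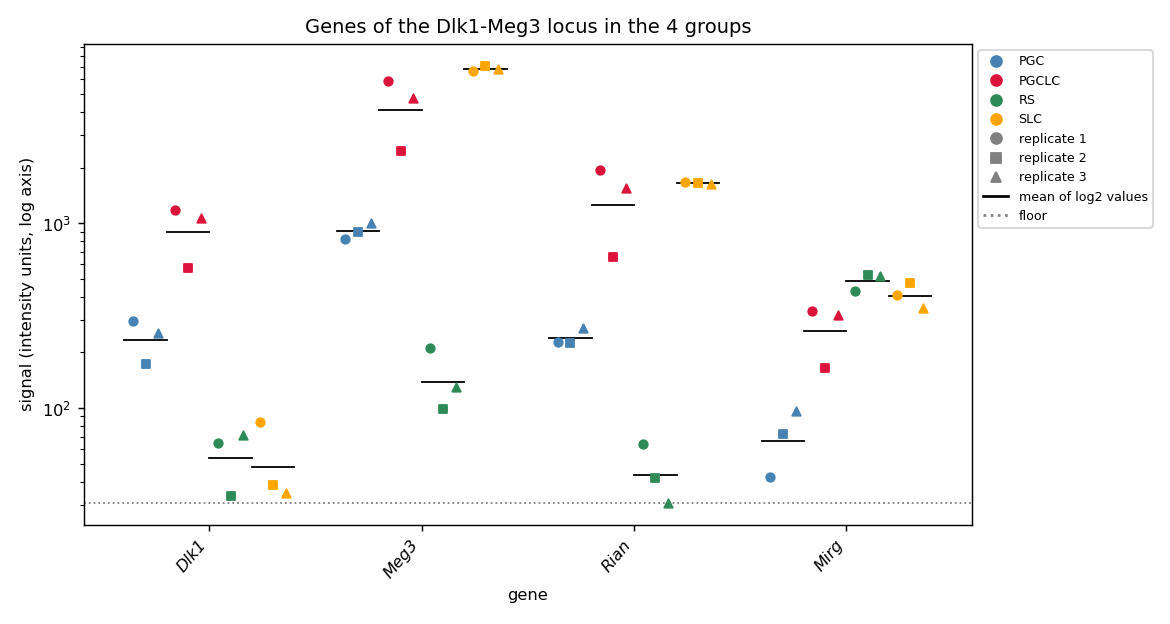
Signal (log axis, values under the floor drawn at it) of Dlk1, Meg3, Rian and Mirg on each of the 12 arrays, grouped by cell type, 1 point per array. Meg3 and Rian are low in round spermatids, and in SLC Meg3 lies at 6662 to 7106 and Rian at 1638 to 1680, whereas Mirg overlaps between RS and SLC and Dlk1 is low in both.

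The step from fetal PGC to round spermatids was a fall for most members. Of the 31, 18 were lower in RS (37.7% of all genes) and 4 higher (31.9%). On every RS array 23 were below PGC (46.7% of all genes) and 4 above (38.9%). Mest fell 62.0-fold, to 49.6, 64.7 and 62.5, Peg3 54.8-fold, Plagl1 40.3-fold with 1 RS array at the floor, Ndn 25.6-fold and Igf2r 14.1-fold (adjusted p from limma at most 2.29e-05). The 4 that rose were Cdkn1c, Mirg, Asb4 and Rasgrf1. Rasgrf1, an exchange factor for RAS, had 141, 15.5 and 37.9 in PGC, 1 array under the floor, and 675, 788 and 708 in RS (13.2-fold, with a ratio of mean signals of 11.2, adjusted p = 5.94e-04). Mirg rose 7.36-fold on its brightest probe set, Asb4, a ubiquitin ligase adaptor, 3.02-fold and Cdkn1c 2.47-fold. The other Mirg probe set above the filter overlapped between the groups, with 59.9, 127 and 95.9 in PGC and 74.2, 120 and 111 in RS. By class, 10 of 15 paternal and 5 of 12 maternal genes fell, and 1 paternal and 3 maternal genes rose.

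In vitro, from PGCLC to SLC, 15 members fell (26.6% of all genes) and 2 rose (29.3%). On every SLC array 19 were below PGCLC (38.5% of all genes) and 4 above (38.1%). Mest fell 52.2-fold, to 98.9, 138 and 73.3, and Dlk1 18.6-fold and Igf2 16.8-fold. Phlda2 fell at least 32.7-fold, a lower bound since all 3 SLC arrays were at or under the floor. Asb4 and Rasgrf1 rose, as they did in vivo, Asb4 to 1238, 1487 and 1490.2 (4.34-fold, with a ratio of mean signals of 2.97, adjusted p = 0.0496) and Rasgrf1 to 525, 467 and 424 (at least 15.3-fold, with all PGCLC arrays under the floor). The call of Asb4 was lost without PGCLC array 3 or any 1 SLC array, with no filter and with no intensity trend. Plagl1, Gnas, Cd81, Rian and Ube3a overlapped between PGCLC and SLC. These comparisons share the PGC, PGCLC, RS or SLC arrays with those above, so the values are set side by side and are not independent.

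Across the 4 cell types a few patterns of level recurred. Mest, Dlk1, Igf2, Nnat and Ddc, the last an aromatic amino acid decarboxylase, were among those higher in both early cell types than in both spermatid types on all arrays. Ddc had 493, 465 and 440.5, 736, 499.7 and 624, 55.9, 38.3 and 107 and 52.4, 56.7 and 55.8 in PGC, PGCLC, RS and SLC. Asb4 was at 744, 766 and 675 in PGC, 90.6, 929 and 398 in PGCLC and 2234, 2119 and 2251 in RS, with a 10-fold range among PGCLC arrays. Plagl1, Ndn, Gnas, Cd81, Meg3, Rian, Igf2r and Impact were among those lowest in RS, with every RS array below every array of the other 3 groups. The same held for Grb10, Peg3, Blcap, Igf2, Airn, Ppp1r9a, Mest and Peg12, the last with all RS arrays under the floor. On its brightest probe set Ube3a was within 3226 to 4729.9 on all 12 arrays. Its next brightest was not as even, with 886, 893 and 811 in PGC, 382, 712 and 452 in PGCLC, 1850, 1913 and 1914 in RS and 1302, 1188 and 1248 in SLC. Between PGCLC and PGC the Ube3a probe sets above the filter differed by -0.79 to 0.57 log2 units, with 2 of 5 higher. The 5 members below the filter (Kcnq1, Usp29, Zim1, Peg10 and Nap1l5) reached at most 200.4, 79.5, 90.7, 329 and 92.1 on any array. Peg10, a gene derived from a retrotransposon, had 329, 57.2 and 218 in PGCLC, against 53.4, 35.9 and 34.0 in PGC.

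Genes that set, guard or erase imprints were followed as a list of 24, of which 20 were tested. Between PGCLC and PGC limma called 0, with 5 higher and 1 lower at an unadjusted p under 0.05 (17.9% and 15.4% of all genes), and 4 were called higher when all 12 arrays were fitted together (Dnmt3b, Dnmt3l, Tet2 and Zfp57). Between SLC and RS, 3 of 20 rose (23.9% of all genes) and 0 fell (6 lower at an unadjusted p under 0.05, beside 39.4% of all genes, limma): Tet2, an enzyme that oxidises methylated cytosine (9.30-fold), Dnmt3a, a de novo DNA methyltransferase (8.00-fold), and Yy1, a zinc finger factor (2.26-fold). Zfp57 had 42.5, 58.2 and 4.61 in PGC, 397, 67.6 and 399 in PGCLC, 274, 109 and 136 in RS and 137, 105 and 116 in SLC. From PGC to RS 15 of the 20 fell (37.7% of all genes) and 2 rose (31.9%), and from PGCLC to SLC 14 fell (26.6%) and 0 rose, also at an unadjusted p under 0.05 (36.5% of all genes, limma). A second list of 45 further imprinted genes had 31 tested. Between SLC and RS 8 of them rose (23.9% of all genes) and 1 fell (3.48%), shares close to those of all genes, with the largest differences in Axl, a receptor kinase (34.6-fold), Tfpi2, a protease inhibitor (19.4-fold), Dcn, a matrix proteoglycan (17.2-fold), and Pon3, a lactonase (14.8-fold). Between PGCLC and PGC 1 rose, Slc22a18, a transporter of the Kcnq1 cluster (2.50-fold, adjusted p = 0.0394), against 1.20% of all genes, and with all 12 arrays 9 were called higher (10.4%) and 1 lower (1.62%).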

How the data were processed

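Total RNA of 12 samples (4 groups of 3) was labelled with biotin and read on Affymetrix 3′ arrays. The deposited table holds an intensity for every probe set on a linear scale, made with MAS5 per the submitters' processing notes, which give no version. Detection calls and scan dates were not used here. Here 34945 of 45101 probe sets with 1 annotated gene symbol were kept, and 932 with several symbols and 9160 with none were left out, as were 64 control probe sets. Values under the 25th percentile (30.7) were raised to it before log2. Genes above the table median (91.8) on at least 3 arrays were tested on the probe set with the highest mean. Comparisons used limma 3.58.1 in R 4.3.3 (lmFit and eBayes with an intensity trend) on the 6 arrays of each pair, because PGCLC arrays spread more. The interaction used all 12. A fold is 2 to the power of the log2 difference, and is a lower bound where the dimmer group is at the floor. Genes named array by array are those called in PGCLC against PGC or SLC against RS, and members of the Igf2-H19, Kcnq1, Dlk1-Meg3, Peg3 and Snrpn-Ndn regions; Mest, Nnat, Ppp1r9a, Ddc, Asb4, Rasgrf1, Copg2 and Peg10 were added after their values were seen. The members, lists and tests were chosen with earlier results of these data known. On simulated data with 200 moved genes among 14201, 54.8% of those moved by 1.5 log2 units were recovered in PGCLC against PGC and 80.5% in SLC against RS. The mean number of false calls was 8.6 and 5.2. Noise was drawn independently for each gene, unlike the array order that many genes share in PGCLC, so these rates need not hold for the real comparisons. With 3 arrays a group the number of arrays limits the precision.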

Additional observations from a re-analysis of the deposited data

Results flagged for a closer look

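For 17 imprinted genes the difference between SLC and RS was not the same as that between PGCLC and PGC, by limma's interaction test over the 12 arrays with Benjamini-Hochberg adjustment over all genes; 10 were called higher (21.1% of all genes) and 7 lower (11.2%). A negative value means that the in vitro minus natural difference was greater at the PGC stage, whether or not SLC exceeded RS. That value was -3.93 log2 units for Phlda2, -2.84 for Cdkn1c, -2.24 for Mirg, -2.09 for Dlk1, -1.82 for Nnat, -1.74 for Igf2 and -1.01 for Ppp1r9a. None of these 7 was called in PGCLC against PGC. Phlda2 was under the floor on every RS and SLC array, so its value only mirrors that of PGCLC against PGC. Cdkn1c was below RS on every SLC array. The in vitro excess was larger at the spermatid stage, or opposite in sign, by 1.33 for Blcap, 2.33 for Peg3, 2.33 for Gnas, 2.48 for Impact, 2.51 for Igf2r, 2.51 for Cd81, 2.88 for Rian, 3.44 for Meg3, 4.27 for Ndn and 5.08 for Plagl1. The spread of the PGCLC arrays is averaged with that of the other groups in this test. Leaving out 1 array at a time gave 10 to 11 members higher and 5 to 9 lower.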

How the results depend on the processing

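The count of 3 members higher in PGCLC than in PGC varied most. It was 16 with all 12 arrays in 1 fit, 12 with log2(value + 32) and no floor, 9 with median centring, 5 with the floor at the 10th percentile, 5 with the filter on 6 of 12 arrays, 5 with the mean of a gene's probe sets, 1 with no filter, 1 with quantile normalization, 1 with no intensity trend and 0 with the replicate block. Plagl1 was called in all of these but median centring, the mean of probe sets and the block. Its 2 probe sets above the filter differed by 1.24 and 0.73 log2 units, and the cause of the lost calls was not tested. Gnas was not called with median centring, quantile normalization, no filter, no intensity trend or the block. Grb10 was not called with the mean of probe sets, quantile normalization, no filter, no intensity trend or the block. The labels do not say whether a replicate number marks a shared culture or animal. Deviations of same-number arrays correlated weakly (between -0.02 and 0.13), which cannot decide whether samples were paired. The block left 0 genes called of all in PGCLC against PGC, while it kept 14 members higher and 1 lower in SLC against RS. The 1 member lower in SLC than in RS was 0 with log2(value + 32), 0 with quantile normalization and 0 with the mean of probe sets, and the 2 higher in SLC than in PGCLC were 1 with no filter and 1 with no intensity trend, Asb4 being lost in both. Leaving out 1 array at a time gave 0 to 17 higher and 0 to 1 lower in PGCLC against PGC, 13 to 14 and 0 to 1 in SLC against RS, 4 to 4 and 18 to 19 in RS against PGC, and 1 to 3 and 14 to 16 in SLC against PGCLC. The numbers were 10 to 11 and 5 to 9 for the interaction. No called member reversed direction in these settings. Over all genes the 170 higher and 7 lower in PGCLC became 1470 and 230 with 12 arrays, 566 and 13 with log2(value + 32), 438 and 423 with median centring, 175 and 3 with the lower floor, 136 and 3 with no intensity trend, 75 and 4 with no filter, 175 and 4 with the stricter filter, 49 and 5 with quantile normalization and 0 and 0 with the block. The median gene stood at 0.005 there and at -0.23 after median centring, and at -0.15 and -0.41 in SLC against RS, where the 494 genes lower became 2617, or 2371 with quantile normalization and 281 with log2(value + 32).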

Other observations

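Probe sets of the same gene did not all move alike. In SLC against RS, Ube3a probe sets ranged from -0.90 to 1.60 log2 units, with 2 of 5 higher; Grb10 probe sets from -0.59 to 2.48, with 2 of 3 higher; and Airn probe sets from -0.29 to 1.43, with 3 of 4 higher. Meg3 probe sets all moved the same way but by 1.18 to 6.87. The levels given for these genes are those of the brightest probe set. The Peg3 and Usp29 start windows overlap by 263 bases on opposite strands, and Usp29 reached at most 79.5 on any array, so the pair was read here only through Peg3.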
